A study of Mus musculus with 28 samples.

Results

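The question here was whether loss of the RNA helicase GRTH changed the RNA on testicular polysomes to the same extent as it changed the RNA of round spermatids. For each gene the knockout (KO) minus wild-type (WT) log2 change was taken in total polysome RNA and in round spermatids, and the second was subtracted from the first. This difference, the subject of all that follows, used 12 of the series' 28 arrays: WT and KO total testicular polysome RNA and WT and KO purified round spermatids, 3 arrays in each group by title. All mice were adult male C57BL/6, and the KO mice carried a null genotype for GRTH, the product of Ddx25. Polysomes had been collected from testis on sucrose gradients, cells had been purified by centrifugal elutriation, and 1 μg of RNA per array had been labelled in a single step. Of 18193 named genes, 9097 reached the median of the genes' mean signals on these arrays and were tested with limma. Nothing in the labels says that arrays of a group came from separate animals, so p-values measure the spread between arrays, which may be technical.

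GRTH is a DEAD-box helicase of germ cells and Leydig cells that exports messenger RNAs from the spermatid nucleus and associates with polysomes. Round spermatids transcribe many messages for sperm proteins early, store them as inactive ribonucleoprotein, and load them on polysomes days later, when the nucleus condenses and the tail is built. Mice without GRTH are known to be sterile, with sperm formation arrested in round spermatids, so that elongating spermatids are missing. Because total polysome RNA comes from the whole testis, a lower signal there can follow from fewer cells of a type, from less RNA per cell or from less RNA on ribosomes, and these cannot be told apart in bulk samples.

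The polysome arrays varied more than the round spermatid arrays, which sets the precision of the difference. The SD of log2 differences between replicate arrays over the 9097 genes was 0.45 to 0.71 in polysome RNA and 0.16 to 0.28 in round spermatids. Round spermatid arrays 1 and 2 were closer to each other (0.16 in both genotypes) than either was to array 3 (0.21 to 0.28). The ratio of 3' to 5' actin signal, a measure of RNA integrity, was 1.41 to 1.64 in round spermatids and 1.57 to 2.09 in polysome RNA. Arrays with the same number deviated together, so counts from a fit blocked on that number (here called the block) are given beside the counts of the difference. The free-text descriptions of WT polysome arrays 1 and 2 and KO polysome array 1 name another group than their titles, and the titles were followed.

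The KO effect differed between polysome RNA and round spermatids in 254 of 9097 genes (2.79%; limma, Benjamini-Hochberg adjusted p under 0.05). It was more negative in polysome RNA in 205 genes (2.25%) and more positive in 49 (0.539%), and 158 and 40 of these differed by at least 2-fold. The median difference over all genes was -0.14, or -0.31 with arrays centred on their medians, where 477 genes lay lower and 28 higher. With the replicate block the counts were 1035 lower (11.4%) and 367 higher (4.03%), and these held all 254 genes in the same direction. Without the 3 arrays whose descriptions name another group, the WT polysome group held 1 array and had no replicate. The median difference was then -0.16, and no count is given. The total of called genes was 71 to 113 when any 1 of the 6 round spermatid arrays was left out, and 726 without WT polysome array 2. It was 5 with round spermatid arrays 1 and 2 averaged as if they were 1 sample, but 292 with that average and the block together, including 165 of the 254.

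Most of these genes fell into 3 patterns, named here from the calls in each material fitted on its own. In 102 genes the KO level was lower in both materials and the fall was deeper in polysome RNA, with medians of -2.40 in polysome RNA and -0.90 in round spermatids. In 82 genes the KO level was higher in round spermatids (median 1.08) while the polysome change, at a median of 0.02, did not pass the test. In 40 genes the KO level was lower in round spermatids (median -0.89) and the polysome change (median 0.38) did not pass. The other 30 genes held 14 lower in polysome RNA alone, 7 with effects of opposite sign that passed in both materials, and 9 of 4 smaller patterns. For comparison, KO polysome RNA alone had 619 changed genes (6.8%), 47 higher (0.517%) and 572 lower (6.29%), or 859 (9.44%) and 1138 (12.5%) with the block. KO round spermatids had 5668 (62.3%), 3775 higher (41.5%) and 1893 lower (20.8%). WT and KO arrays did not overlap in 26.5% of all genes in polysome RNA and in 67.7% in round spermatids. Across the 9097 genes the polysome and round spermatid effects, which share no array, had a Pearson r of 0.67 and a Spearman rho of 0.56, as a description over genes that are not independent.

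**Figure D1:**
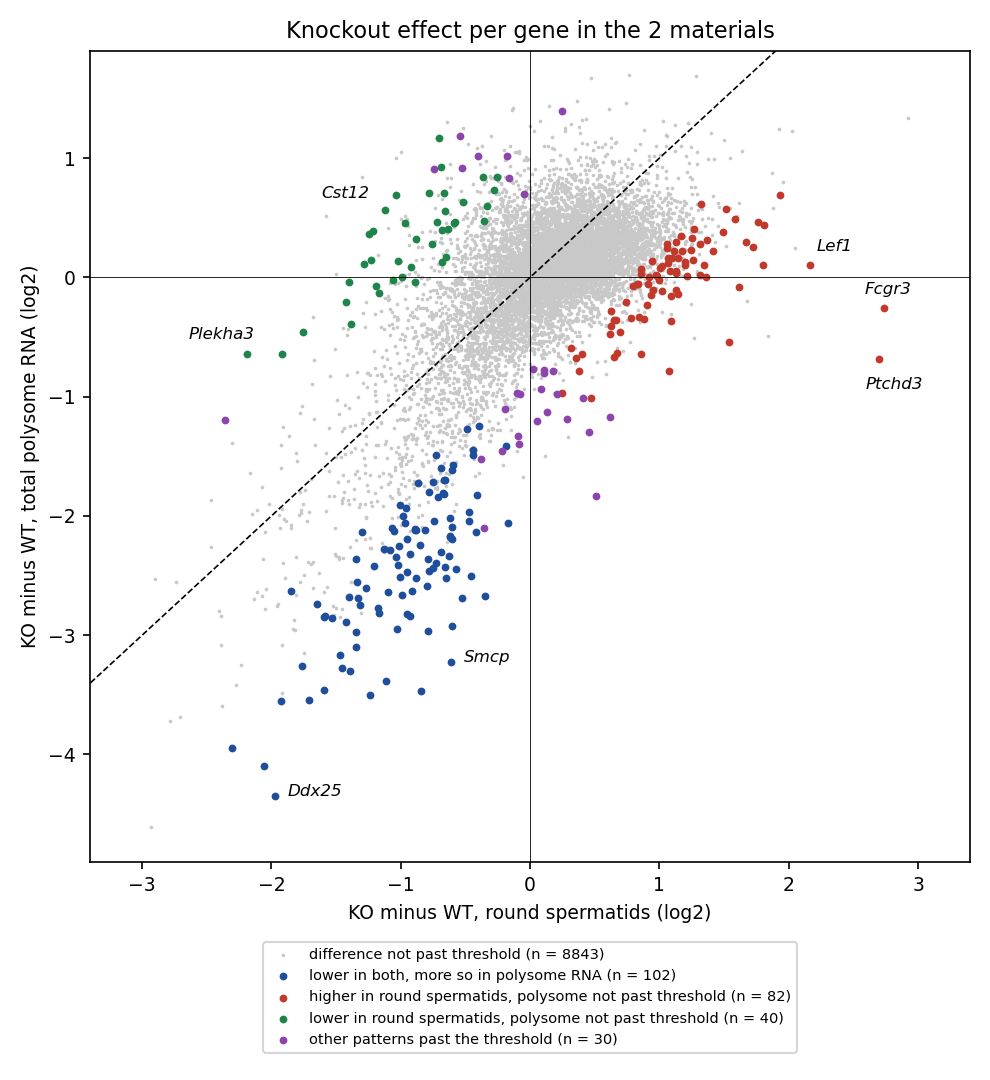
KO minus WT change of each of the 9097 tested genes in round spermatids (x axis, log2) against total polysome RNA (y axis, log2), coloured by pattern, with the dashed line marking equal effects. The 102 genes lower in both materials lie below the line at the lower left, and the 82 genes higher in round spermatids lie at the right with polysome changes near 0.

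Ddx25 itself checks the labels. Its signal in polysome RNA was 14834, 21149 and 14624 in WT and 1063, 598 and 805 in KO, and in round spermatids 18439, 16166 and 15473 in WT and 4596, 4241 and 3865 in KO. No KO array reached a WT array in either material. KO polysome RNA kept 4.87% of the WT level and KO round spermatids 25.4%, a difference of -2.37 ± 0.29 (SE; adjusted p = 0.00318). The labels do not say which part of the gene is deleted, so the signal left in the KO cannot be placed.

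Messages of the late, shape-changing steps of sperm formation had the deeper polysome loss. Smcp, a protein of the capsule around sperm mitochondria, is stored for days before it is translated. Its polysome signal was 21461, 38366 and 26468 in WT and 3248, 3699 and 2197 in KO. In round spermatids it was 41006, 36866 and 30076 in WT and 25881, 23984 and 20504 in KO. The groups did not overlap in either material, but polysome RNA kept 10.6% of the WT level and round spermatids 65.2%. The polysome change was -3.22 ± 0.29, the round spermatid change -0.61 ± 0.14 and their difference -2.61 ± 0.33 (95% interval -3.34 to -1.89, adjusted p = 0.00318).

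Protamines and transition proteins, which replace histones in the condensing nucleus, showed the same pattern with wider error. Prm2, a protamine, read 35305, 85878 and 39747 in WT polysome RNA and 8778, 10329.5 and 5127 in KO. In round spermatids it read 42590.0, 39157 and 33817 in WT and 33316, 30682 and 26889.6 in KO, so the KO arrays were lower in both materials but by far less in cells. The difference was -2.32 ± 0.45 (adjusted p = 0.0192), and adjusted p rose to at most 0.0653 when WT round spermatid array 2 or 3 or KO round spermatid array 1 or 2 was left out. Tnp1, a transition protein, had WT polysome signals of 27758, 72098 and 33994 against 8420.1, 7223 and 4154 in KO. Its round spermatid signals were 48401, 42922 and 33978 in WT and 32845, 28850.0 and 25064 in KO. WT polysome array 2 was the highest of the 12 arrays for both genes. The Tnp1 difference of -2.16 ± 0.47 (adjusted p = 0.0350) did not pass without KO polysome array 3 or any 1 of the round spermatid arrays (adjusted p up to 0.105), and its other bright probe set read -0.42 (adjusted p = 0.604). Without KO round spermatid array 1, Hils1, a linker histone of spermatids, also lost its call (-1.74 ± 0.31, adjusted p = 0.0141, against 0.0516). Its round spermatid change of -0.36 did not pass (0.0536).

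Other members of this pattern kept their call without any 1 of the 12 arrays. Oaz3, an antizyme of spermatids, had a difference of -2.63 ± 0.41 (adjusted p = 0.00813) and a second bright probe set at -2.11 (0.0372). H2al2a, a histone variant of condensing spermatids, read 7706, 12651 and 8203 in WT polysome RNA and 1042, 996 and 647 in KO, and in round spermatids 20282, 18308 and 15071 against 8923, 8205 and 7512. Its difference was -2.27 ± 0.31 (adjusted p = 0.00471). Odf1, a protein of the outer dense fibres of the tail, differed by -2.32 ± 0.37 (0.00890; its other bright probe sets read -2.18, 0.0285, and -1.70, 0.0796). Prm3, a protamine-related gene, differed by -2.26 ± 0.30 (0.00389) and Dbil5, an acyl-CoA binding protein of spermatids, by -2.18 ± 0.32 (0.00598). The ubiquitin ligase Rnf133 differed by -1.82 ± 0.24 (0.00338) and Capza3, an actin capping subunit of sperm, by -1.64 ± 0.29 (0.0126). Calml4, a calmodulin-like protein, stood apart because its round spermatid change did not pass. Its polysome signals were 645, 463 and 687 in WT and 222, 141 and 115 in KO, its round spermatid signals 273, 253 and 458 against 426, 456 and 497, and its difference -2.35 ± 0.36 (adjusted p = 0.00695). Of the 52 named genes past the threshold, 29 kept their call in all 12 fits that left out 1 array.

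**Figure D2:**
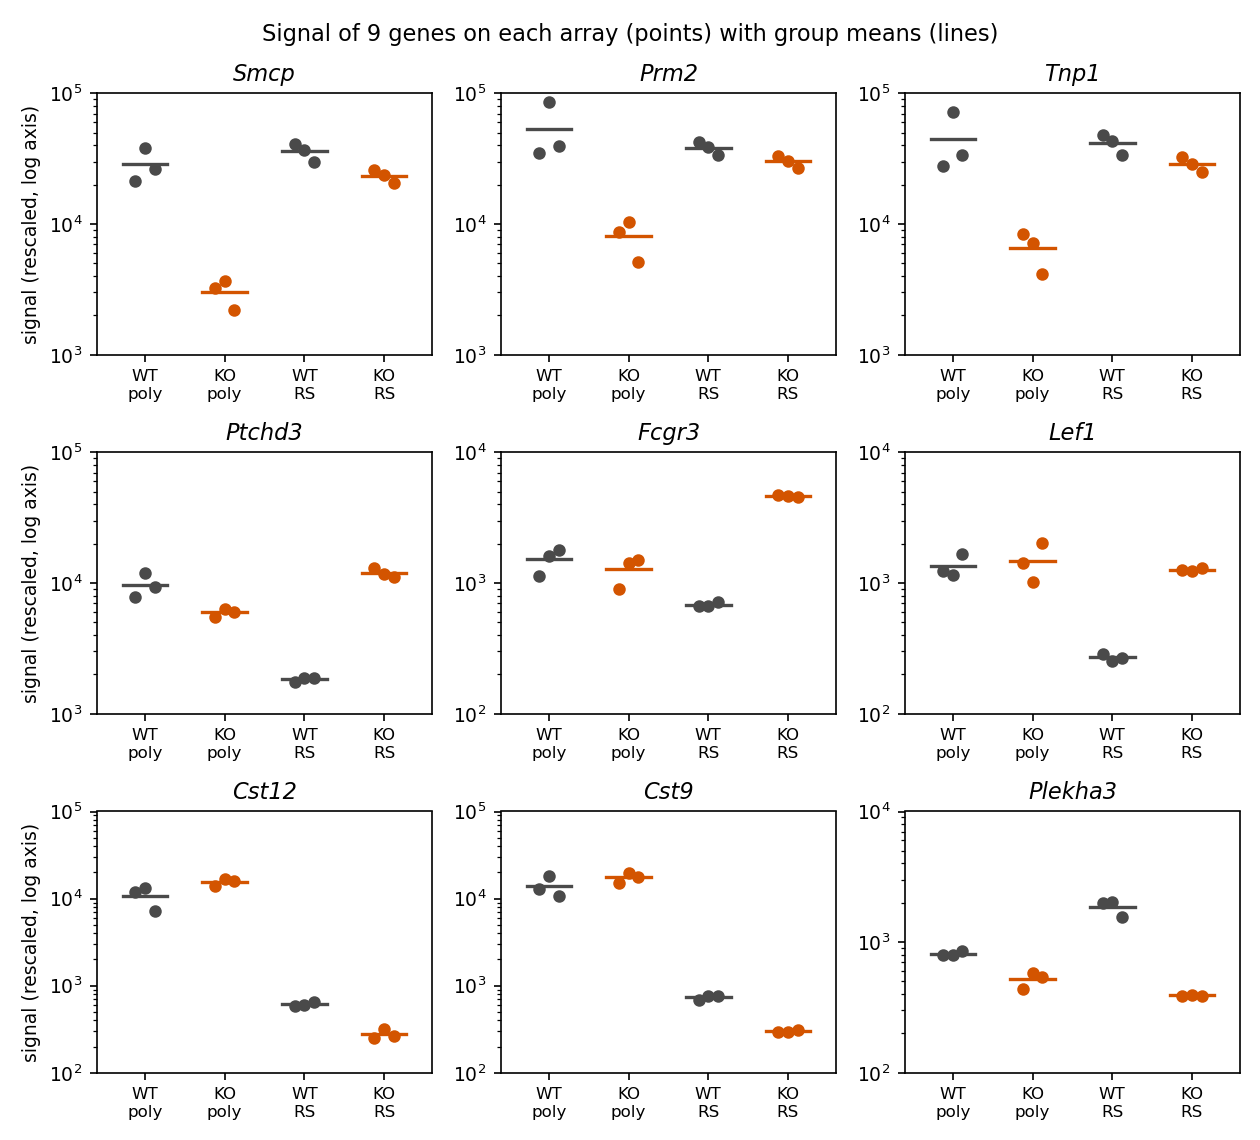
Signal of 9 genes on each of the 12 arrays (points, rescaled signal on a log axis) with group means (lines), for WT (grey) and KO (orange) total polysome RNA (poly) and round spermatids (RS). In the top row (Smcp, Prm2, Tnp1) KO polysome RNA is far below WT and KO round spermatids slightly below. In Ptchd3, Fcgr3 and Lef1 KO round spermatids are above WT, in Cst12 and Cst9 below WT with polysome signals many times higher, and in Plekha3 the distance between genotypes is larger in round spermatids.

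The gene lists, written with earlier results of these data known, describe these messages and are not independent support. Of 20 elongating spermatid markers, 12 had a more negative effect in polysome RNA and 0 a more positive one, against 2.25% and 0.539% of all genes tested. With the block 18 did, and the median difference was -1.81 against -0.14 over all genes. The summed signal of the 20 was 469708 to 629826 in WT and 276962 to 339273 in KO round spermatids. In polysome RNA it was 284708 to 536108 in WT and 43423 to 75040 in KO. These messages were thus abundant in the round spermatid fraction too. In polysome RNA alone 19 of the 20 fell (median -2.93) and in round spermatids alone 19 fell (median -0.89). Cabyr, a calcium-binding protein of the fibrous sheath, was the exception in both, with -0.35 in polysome RNA and -0.13 in round spermatids. Of 13 genes that package spermatid chromatin, the transition proteins and protamines among them, 8 differed downward (11 with the block, median -1.74). Both lists hold Prm1, Prm2, Prm3, Tnp1, Tnp2 and Hmgb4, so their counts are not separate. Prm1 was not among the 8, with a difference of -1.37 ± 0.52 (adjusted p = 0.176). Brdt, a reader of histone acetylation that acts earlier, in meiosis and round spermatids, had a difference of 0.05.

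Tail structure was mixed. Of 27 genes listed for the fibrous sheath and outer dense fibres, 6 differed downward (10 with the block) with a median of -0.49. The list was broad and also held genes of other structures, such as Smcp, Oaz3 and the tektins. The 6 were Oaz3, Smcp, Odf1, Cabs1, Spata6 and Akap4, the main anchoring protein of the fibrous sheath (-1.07 ± 0.26, adjusted p = 0.0452). The tektins Tekt1, Tekt2 and Tekt4, proteins of the axoneme, had differences of -0.10, 0.03 and -0.01. Among 6 testis-specific serine kinases, Tssk3 differed downward (-1.87 ± 0.37, adjusted p = 0.0211) and Tssk5 upward (1.20 ± 0.24, 0.0223), and 3 lay lower and 1 higher with the block. Tssk3 lost its call without WT round spermatid array 2 or 3 or any of the 3 KO ones (adjusted p up to 0.0693), and Tssk5 without array 1 or 2 of either genotype (up to 0.0833). Acrosome and egg binding genes differed little: 1 of 33, Capza3, passed (3 with the block; median -0.16), and 16 of the 33 fell in round spermatids, against 20.8% of all genes. Of 12 round spermatid markers 1 passed (3 with the block; median -0.24), Cby2, a chibby family protein, at -1.51 ± 0.30 (adjusted p = 0.0220). It lost its call without any 1 of the round spermatid arrays. In KO round spermatids 8 of the 12 markers fell and 1 rose, against 20.8% and 41.5% of all genes. Their summed signal there was 144271 to 166582 in WT and 108114 to 116933 in KO.

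A list of spermatid programme genes held CREM, the transcription factor that switches on many spermatid genes. It also held CREM partners, other regulators and Tnp1, which other lists hold too. Of the 18 genes 4 differed downward (6 with the block; median -0.35). Fhl5, the coactivator of CREM, differed by -1.87 ± 0.29 (adjusted p = 0.00813), Spz1, a spermatid transcription factor, by -1.72 ± 0.25 (0.00598), and Creb3l4, a membrane-bound transcription factor, by -0.85 ± 0.19 (0.0373), with Tnp1, a CREM target, as the other. Creb3l4 lost its call without KO polysome array 2 or 3 or any 1 of the round spermatid arrays (up to 0.122). Crem itself had a difference of -0.17. Among 39 ubiquitin ligases and conjugating enzymes of spermatids, 5 differed downward and 1 upward (7 and 1 with the block). Of these, Ube2j1, a conjugating enzyme, differed by -1.23 ± 0.23 (adjusted p = 0.0179) while its other bright probe set read -0.41 (0.267), and its call was lost without WT round spermatid array 2 or any of the 3 KO ones (up to 0.0625). Of 30 germ cell RNA-binding regulators Ddx25 alone passed (9 lower with the block), and in round spermatids 16 of the 30 rose and 5 fell, against 41.5% and 20.8% of all genes (median 0.40 there and 0.02 in polysome RNA).

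**Figure D3:**
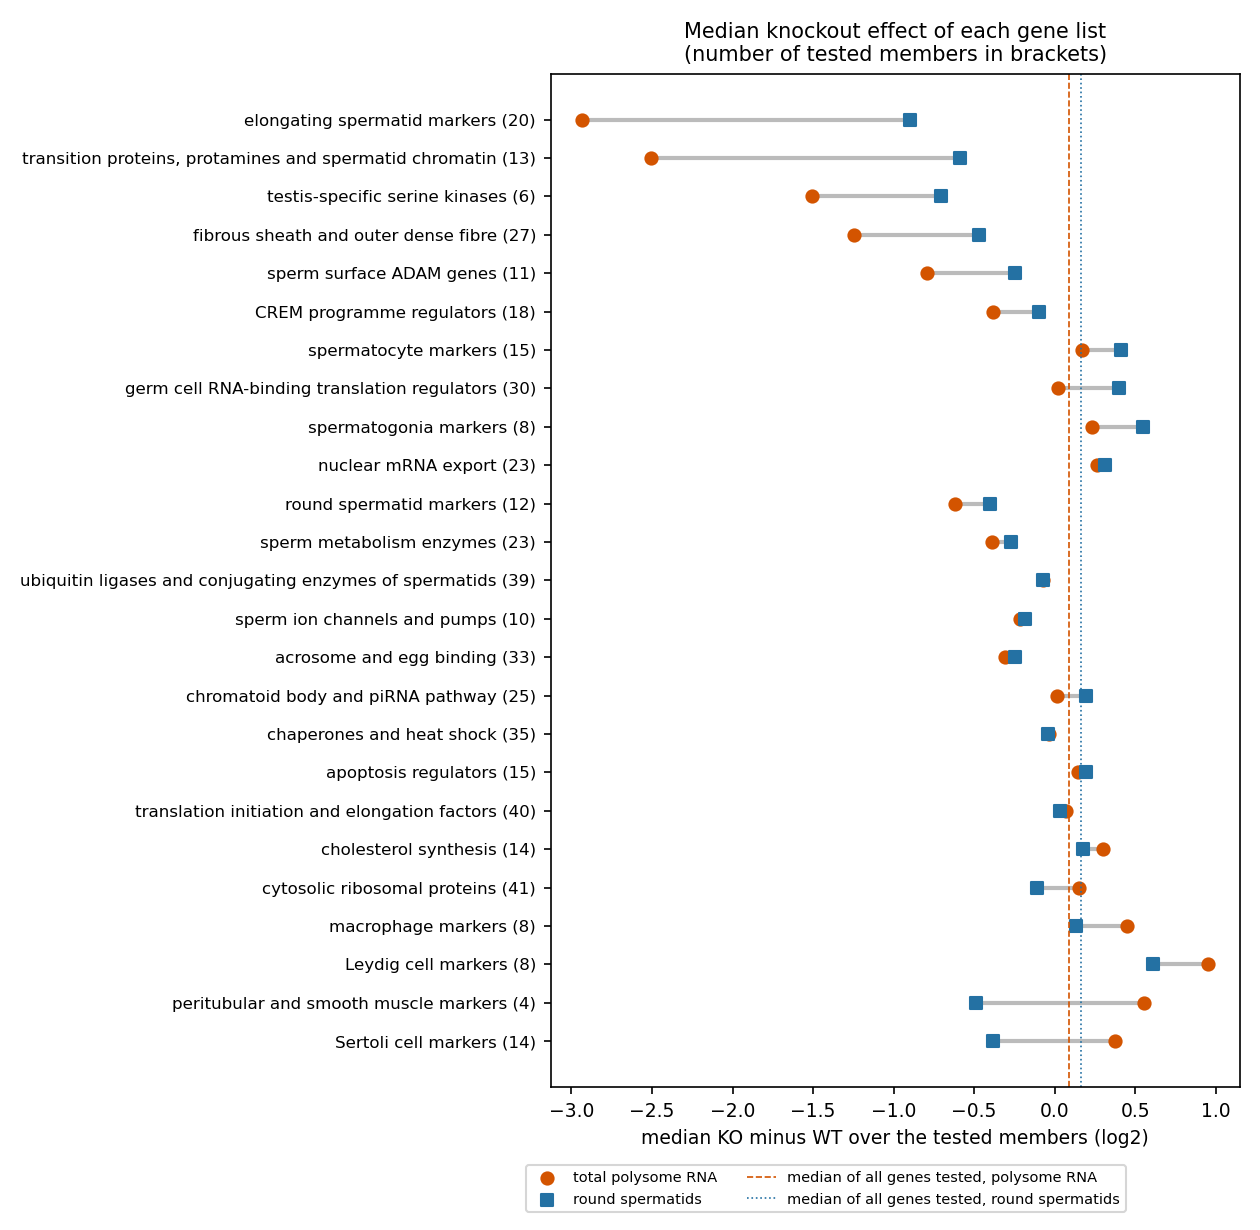
Median KO minus WT change (x axis, log2) of each gene list in total polysome RNA (orange circles) and round spermatids (blue squares), with the number of tested members in brackets and lists of under 4 tested members left out. Dashed and dotted lines give the medians of all 9097 genes. The elongating spermatid list lies at -2.93 and -0.89 and the chromatin list at -2.50 and -0.59, while Sertoli cell markers lie at 0.38 and -0.38, with the polysome point on the higher side.

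The promoters of the 102 genes lower in both materials were read from RefSeq sequences of the GRCm38.p6 build, from 250 bases before to 50 after each gene's start. Of the 102 genes 84 had 109 promoters, some of which overlap. Their median was 4 CpG dinucleotides per 300 bases, against 21 in the 9608 promoters of all genes tested, and 21 and 20 in the other 2 main patterns (88 and 44 promoters). It was 7 in the 646 promoters of all 572 genes lower in polysome RNA and 7 in the 32851 promoters of the reference table, both nearer to 4. The upstream 250 bases of Tnp1 and Prm2, both deeper in polysome RNA, are shown beside those of Plekha3, which fell in round spermatids, with each CpG in capitals and each sequence on its gene's strand. They span chr1:73015900-73016149 (minus strand, Tnp1), chr16:10792106-10792355 (minus, Prm2) and chr2:76675065-76675314 (plus, Plekha3), and hold 2, 2 and 32 CpG. Plekha3 is the richest in CpG of the genes read this way outside the first pattern: the upstream 250 bases of Ptchd3 hold 12, and those of 4 Lef1 starts hold 11, 14, 6 and 5.
Tnp1: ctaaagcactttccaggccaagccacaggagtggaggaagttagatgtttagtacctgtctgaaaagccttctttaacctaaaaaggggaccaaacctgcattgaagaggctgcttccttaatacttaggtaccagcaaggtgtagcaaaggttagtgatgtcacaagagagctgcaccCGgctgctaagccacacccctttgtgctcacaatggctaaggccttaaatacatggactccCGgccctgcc
Prm2: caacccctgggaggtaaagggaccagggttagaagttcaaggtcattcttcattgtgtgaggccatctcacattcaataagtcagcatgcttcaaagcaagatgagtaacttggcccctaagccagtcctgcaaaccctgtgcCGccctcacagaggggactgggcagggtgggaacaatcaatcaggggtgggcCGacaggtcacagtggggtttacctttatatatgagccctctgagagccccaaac
Plekha3: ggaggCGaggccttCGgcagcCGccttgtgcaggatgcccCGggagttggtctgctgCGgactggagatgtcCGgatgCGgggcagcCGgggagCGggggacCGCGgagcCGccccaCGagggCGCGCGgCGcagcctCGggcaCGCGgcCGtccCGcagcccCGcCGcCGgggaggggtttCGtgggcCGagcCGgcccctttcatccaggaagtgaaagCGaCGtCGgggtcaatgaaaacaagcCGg

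One short sequence recurred near the starts of these genes. TGATGTCA, a variant of the palindromic sequence TGACGTCA bound by CREM family factors, was looked for after it was seen in these promoters, on both strands. It stood in 19 of the 109 promoters (17.4%), at 16 sites in 16 of the 84 genes, against 2.69% of the promoters of all genes tested and 3.62% of the 32851 promoters in the reference table. It stood in 0 of the 88 and 0 of the 44 promoters of the other 2 patterns. TGACGTCA itself stood in 0 of the 109, against 3.35% of promoters of all genes tested. All 572 genes lower in polysome RNA, whatever their difference, held TGATGTCA in 10.7% of 646 promoters. The sites began between 97 bases before and 25 after the start. Windows with 8 bases on each side show the match in capitals (TGACATCA is its reverse complement) on the gene's strand, for the 4 lowest differences and for Akap4. They lie at chr3:92589034-92589057 (Smcp), chr1:73015978-73016001 (Tnp1), chr3:92142784-92142807 (Lelp1), chr4:128260954-128260977 (Hmgb4) and chrX:7067472-7067495 (Akap4). A match is a description of these letters, not of binding.
Smcp: gagtattaTGATGTCAtaaaagag
Tnp1: aaggttagTGATGTCAcaagagag
Lelp1: tgctgtaaTGATGTCAtaaatgga
Hmgb4: ctcggggaTGACATCAcagtatcc
Akap4: agaaacagTGATGTCAtgaatttt

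The 102 genes were also low in KO spermatocytes, in arrays that entered the choice of probe sets but not the difference. Of them 90 fell in spermatocytes and 0 rose, against 17.3% lower and 18.4% higher (35.6% changed) over all genes, with a median of -0.63 against 0.03. Smcp read 13284 to 15495 on 4 WT and 7403 to 8154 on 4 KO spermatocyte arrays. Some of these messages lay at or near the top of the scale. The highest signals were 29759 to 49974 on the round spermatid arrays, where Smcp, Oaz3, Prm2 and Tnp1 lay near them and Tnp1 was the highest on WT array 3. On the 3 WT polysome arrays the highest signal, 35305, 85878 and 39747, was that of Prm2 itself. The 572 genes lower in polysome RNA were split by WT round spermatid signal into 190 dim, 191 middle and 191 bright genes. The difference passed downward in 12.1%, 15.7% and 35.1% of them, with median differences of -0.51, -0.67 and -0.97. Their median round spermatid changes were -0.91, -0.83 and -0.87, and their median polysome changes -1.39, -1.49 and -1.84. Calls of a deeper polysome fall were thus more frequent among bright genes. Whether signal height itself produced this was not tested.

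**Figure D4:**
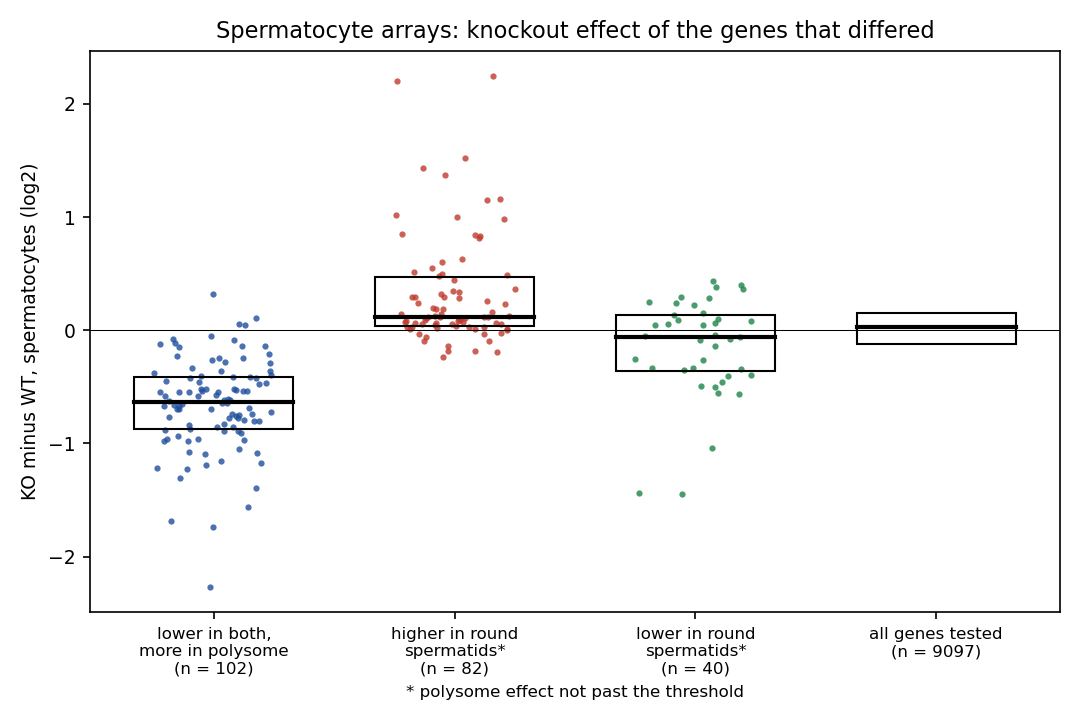
KO minus WT change in spermatocytes (y axis, log2), a comparison on 8 other arrays, for the genes of the 3 main patterns (points, 1 per gene) and all 9097 genes tested, with medians (thick lines) and middle 50% of genes (boxes). The 102 genes lower in both materials have a median of -0.63, and the other patterns have medians of 0.12 and -0.06 against 0.03 over all genes.

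The 2 largest differences of all belonged to genes that rose in KO cells and not on KO polysomes. Ptchd3, a patched-domain membrane protein of sperm, read 1751, 1874 and 1866 in WT round spermatids and 12957, 11761 and 11155 in KO. In polysome RNA it read 7842, 12008 and 9353 in WT and 5517, 6322 and 6059 in KO. The KO arrays were thus all higher in cells and all lower in polysome RNA, where the change of -0.68 ± 0.22 did not pass (adjusted p = 0.117). The round spermatid change was 2.69 ± 0.08 and the difference -3.38 ± 0.22 (95% interval -3.86 to -2.90, adjusted p = 1.85e-05). Fcgr3, an Fc receptor of immune cells, read 666, 669.8 and 722 in WT round spermatids and 4764, 4651 and 4579 in KO. Its polysome signals overlapped, at 1131, 1625 and 1798 in WT and 898, 1418 and 1504 in KO, with KO lower in all 3 same-numbered pairs. The difference was -3.00 ± 0.29 (adjusted p = 0.000585).

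Both genes were high in the other purified KO cells too. Ptchd3 read 2225 to 2418 in WT and 10004 to 11792 in KO spermatocytes, a change of 2.20 (adjusted p = 1.27e-07), and changed by 2.14 in Leydig cells (4.90e-05). Fcgr3 read 1211 to 1295 in WT and 5807 to 6142 in KO spermatocytes, a change of 2.25 (1.76e-08), and changed by 1.99 in Leydig cells (4.90e-05). In Leydig cells, with only 2 arrays of each genotype, 75.4% of all genes changed, 36.1% upward and 39.3% downward. The median standard error there was 0.027, and the labels do not say whether those arrays came from separate animals. Ptchd3 and Fcgr3 were also 2 of the 5 genes that passed with round spermatid arrays 1 and 2 averaged (-3.35 and -2.97), beside 1700031F05Rik, 1700042G07Rik and Zcchc13. Of 8 macrophage markers tested, 1 rose and 2 fell in KO round spermatids, against 41.5% and 20.8% of all genes. The summed signal of 14 on the array was 17683 to 22767 in WT and 10499 to 11415 in KO round spermatids. That sum holds Aif1, an actin-binding protein also read in germ cell fractions, which at 20014, 18509 and 14837 in WT round spermatids made up most of it and fell in KO.

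Lef1, a transcription factor of Wnt signalling, read 289, 253 and 268 in WT round spermatids and 1250.2, 1239.8 and 1302 in KO, while polysome RNA overlapped at 1235, 1146 and 1686 against 1425, 1019.5 and 2026. Its difference was -2.06 ± 0.31 (adjusted p = 0.00644), but another bright probe set gave -0.61 (0.243). Ift46, a subunit of the intraflagellar transport complex that builds cilia, rose from 1764, 1812 and 1895 to 6673, 6349 and 6243 in round spermatids. In polysome RNA it read 4345, 4975 and 4917 in WT and 6315, 6891 and 6074 in KO, higher on every KO array but short of the test (0.44 ± 0.19, adjusted p = 0.251). The difference was -1.37 ± 0.17 (0.00318). Tdrd1, a tudor protein of the piRNA pathway, differed by -0.78 ± 0.18 (0.0390), and Bad, a promoter of cell death, by -1.06 ± 0.21 (0.0233), its other bright probe set reading -0.68 (0.281). Tdrd1 kept its call in 4 of 12 fits that left out an array and Bad in 7, and Bad lost it without any WT round spermatid array or KO array 1 or 2. Tdrd1 lost it without any WT round spermatid array, KO round spermatid array 1 or 2, WT polysome array 1 or KO polysome array 2 or 3.

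In KO spermatocytes 33 of the 82 genes higher in round spermatids rose and 1 fell, against 18.4% and 17.3% of all genes. Markers of earlier germ cells moved the same way as these genes in round spermatids. There 9 of 15 spermatocyte markers and 7 of 8 spermatogonia markers rose, against 41.5% of all genes. In polysome RNA 0 rose, against 0.517% of all genes. The summed signal of 14 spermatogonia markers was 5131 to 5593 in WT and 7647 to 8313 in KO round spermatids. That of 16 spermatocyte markers was 85879 to 109031 in WT and 88320.0 to 102343 in KO, so those groups overlapped. Most of that sum was Ldhc and Pgk2, with means of 40240 and 25885 in WT and 34964 and 16045 in KO. The part of other germ cells in the round spermatid fraction was not tested.

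Genes whose effect was more positive in polysome RNA included several of Sertoli cells, the somatic cells that nurse germ cells in the tubule. Cst12, a cystatin of Sertoli cells, read 12061, 13202 and 7289 in WT polysome RNA and 14108, 16957 and 15732 in KO. In round spermatids it read 592, 606 and 655 in WT and 248, 317 and 265 in KO. The KO arrays were higher in one material, with a change that did not pass (0.56 ± 0.26, adjusted p = 0.275), and lower in the other (-1.12 ± 0.10). The difference was 1.68 ± 0.28 (adjusted p = 0.0104). Cst9, a related cystatin, read 12975, 18211 and 10615 in WT polysome RNA and 15269.9, 19774 and 17812 in KO, which overlap as groups although KO was higher than the WT array of the same number in all 3 pairs. Its round spermatid signals of 688, 755 and 759 in WT and 297, 295 and 309 in KO did not overlap, and its difference was 1.61 ± 0.26 (0.00862). Defb19, a beta-defensin of Sertoli cells, differed by 1.43 ± 0.32 (0.0390) and Tsx, an X-linked testis gene, by 1.73 ± 0.40 (0.0398). Both lost their call without any 1 of the round spermatid arrays, WT polysome array 1 or 3 or KO polysome array 3, and Tsx also without KO polysome array 2 (adjusted p up to 0.108).

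Of 14 Sertoli cell markers tested, 2 differed upward (7 with the block) and 0 downward, with a median of 0.85 against -0.14 over all genes. In round spermatids 7 of the 14 fell and 1 rose (Tjp1), against 20.8% and 41.5% of all genes. In polysome RNA 0 passed, against 6.8%. The summed signal of 18 Sertoli markers on the array was 6359 to 6514 in WT round spermatids and 4800.3 to 5084 in KO. In polysome RNA it was 67269 to 121870 in WT and 104604 to 157426 in KO, far above the round spermatid level in both genotypes. Those ranges overlap, but KO was the higher in every pair of same-numbered polysome arrays. Leydig cell markers summed to 1119 to 1145 in WT and 1441 to 1707 in KO round spermatids, and to 23673 to 44453 in WT and 44584 to 72309 in KO polysome RNA. Of 8 Leydig markers 0 differed (2 higher with the block), and 5 rose in round spermatids, against 41.5% of all genes. Of the 18 Sertoli markers 1 lay below the offset of 16 in round spermatids of each genotype. The part of other testis cells in the polysome change was not tested, nor was their part in the round spermatid signal of these markers.

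**Figure D5:**
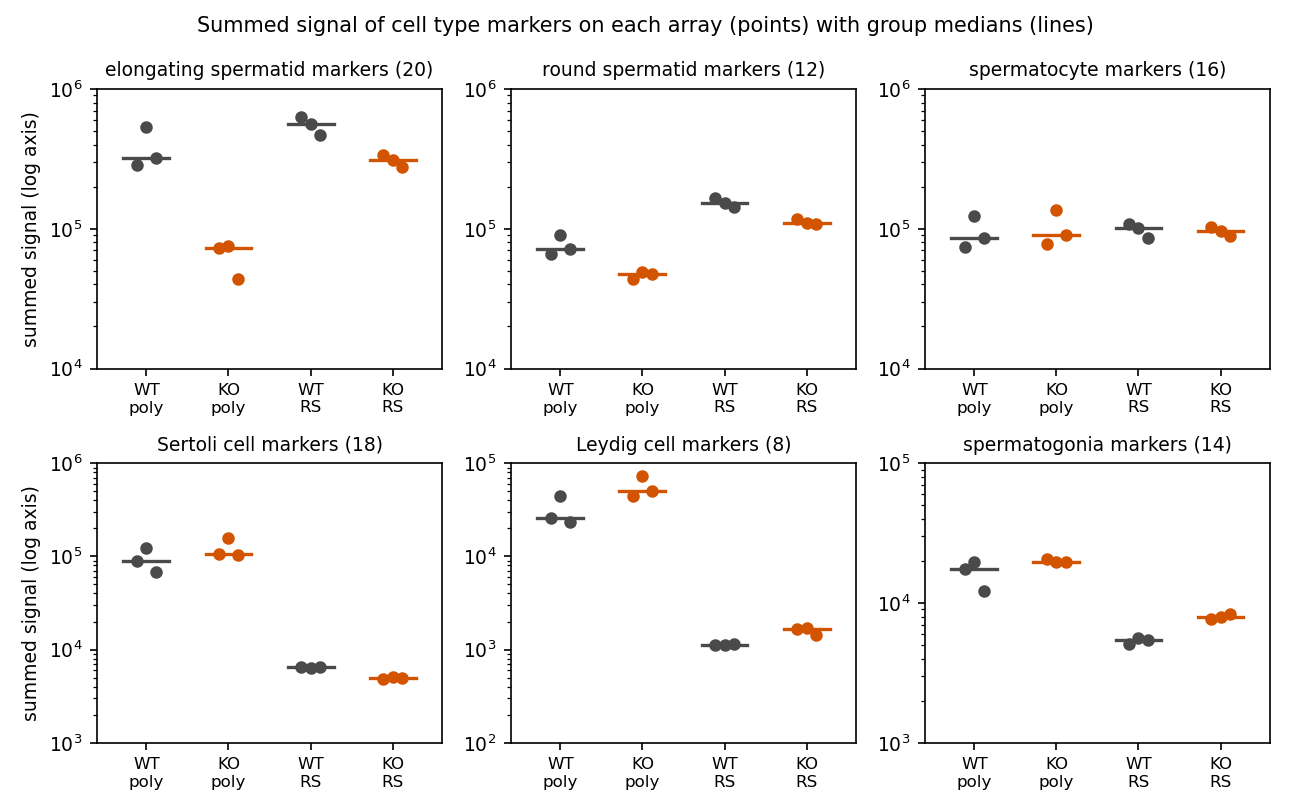
Summed signal of 6 sets of cell type markers (number of genes in brackets) on each array (points, log axis) with group medians (lines), for WT (grey) and KO (orange) total polysome RNA (poly) and round spermatids (RS). Elongating spermatid markers sum to 43423 to 75040.1 in KO polysome RNA against 284708 to 536108 in WT. In round spermatids they sum to 276962 to 339273 in KO against 469708 to 629826 in WT. Sertoli and Leydig markers are far higher in polysome RNA than in round spermatids in both genotypes.

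Other genes lower in round spermatids were of mixed kinds. Plekha3, a lipid-binding protein of the Golgi, read 1981, 2015 and 1559 in WT and 389, 396 and 387 in KO round spermatids. In polysome RNA it read 791, 802 and 854 in WT and 440.3, 582 and 539.7 in KO, so KO arrays were lower in both but the polysome change did not pass (-0.64 ± 0.20, adjusted p = 0.106). The difference was 1.55 ± 0.20 (0.00370), while another bright probe set of the gene read 0.04 and did not pass. Dmpk, the kinase of myotonic dystrophy, had the largest positive difference by the rule for named genes (1.87 ± 0.42, adjusted p = 0.0383). In polysome RNA it read 155, 513 and 286 in WT and 634, 679 and 665 in KO, a change that did not pass (1.17 ± 0.36, 0.106), and in round spermatids it fell from 186, 177 and 168 to 96.6, 92.5 and 121. Without any 1 of the 3 KO polysome or the 6 round spermatid arrays it lost its call. Ube2r2, a ubiquitin conjugating enzyme, differed by 1.39 ± 0.25 (0.0138, or 0.0559 without WT round spermatid array 2), with polysome signals that overlapped as groups and were higher in KO in all 3 same-numbered pairs.

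Effects of opposite sign, each past the threshold in its own material, were found in 7 genes. The transcripts 4933401B06Rik, 4930453H23Rik, D130020L05Rik and Bco1, a carotenoid-cleaving enzyme, were lower in KO polysome RNA and higher in KO round spermatids. 4930453H23Rik read 603, 469 and 717 in WT and 218, 233 and 239 in KO polysome RNA, and 1771, 1708 and 1784 in WT and 2585, 2572 and 2097 in KO round spermatids. Neither pair of groups overlapped, and the difference was -1.75 ± 0.22 (adjusted p = 0.00318). All 4 of these genes also rose in KO spermatocytes (by 0.46 to 0.68). Mark1, a kinase of microtubule-binding proteins, C2cd4b, a C2-domain protein, and Fabp5, a fatty acid binding protein, were higher in KO polysome RNA and lower in KO round spermatids. Mark1 read 89.1, 90.9 and 111 in WT and 179, 254 and 162 in KO polysome RNA, and 497, 479 and 476 in WT and 288, 306 and 257 in KO round spermatids. The difference was 1.65 ± 0.23 (0.00475). Bco1 lost its call without WT round spermatid array 1 or 2 or KO array 1, and Fabp5 without WT array 2 or KO array 1 or 2 (adjusted p up to 0.0623).

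Most genes that fell on KO polysomes also fell in KO round spermatids, and some by the same amount. Of the 572 lower in polysome RNA, 536 were lower in round spermatids too, which is 93.7% of the first list and 28.3% of the second. Over all genes 20.8% were lower in round spermatids and 6.29% in polysome RNA. By estimate the polysome fall was deeper in 500 of the 536, which were picked by their calls. Their medians were -1.62 in polysome RNA and -0.90 in round spermatids. The difference itself passed in the direction of a deeper polysome fall in 102 of the 536. In 1 gene, Slamf9, an immune receptor family member, the round spermatid fall was deeper and the difference passed (1.17 ± 0.28, adjusted p = 0.0452), a call that held only without WT polysome array 2 or without KO polysome array 3 among the 12 fits that left out 1 array (adjusted p up to 0.136). Jag1, a Notch ligand, read 953, 962 and 1062 in WT and 229, 262 and 249 in KO polysome RNA, and 1173, 1210.2 and 1228 against 320.4, 266 and 338 in round spermatids. Its changes were -1.94 and -1.92 and the 95% interval of the difference ran from -0.42 to 0.37. Mbd2, a methyl-CpG binding protein, changed by -1.50 in both materials (interval of the difference -0.43 to 0.42), and its other bright probe set read -1.06 and -0.77. Nqo2, a quinone reductase, changed by -1.80 and -1.78 (interval -0.43 to 0.40). Med15, a Mediator subunit, rose in both, by 0.87 and 0.91 (interval -0.48 to 0.41). These genes were chosen for their small difference, which is a description.

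The machinery of translation showed no call, but with 2.79% of all genes called, lists of this size cannot tell 0 from that share. Of 41 cytosolic ribosomal protein genes 0 differed (2 higher with the block), with a median difference of 0.21. In round spermatids 9 of them fell, a share near the 20.8% of all genes, and 4 rose, against 41.5%. In polysome RNA 0 passed, against 6.8% of all genes. Of 40 translation initiation and elongation factors 0 differed (2 higher and 1 lower with the block; median -0.05), and of 23 nuclear mRNA export genes 0 differed (1 higher with the block; median -0.25), and 15 of the 23 rose and 3 fell in round spermatids, against 41.5% and 20.8% of all genes. Over all genes 1704 had an unadjusted p under 0.05, and the median standard error of the difference was 0.27, and the smallest difference that passed was 0.71, in the fit without the block.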

How the data were processed

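RNA of mouse testis fractions was measured on 28 one-colour arrays of 45101 probe sets. The deposited intensity values are the authors' signals from GCOS, per the submitters' processing notes, which name no version. Their trimmed mean was 500 on 24 arrays but 29.8 to 168 on polysome arrays 1 and 2 of both genotypes, so every array was rescaled to a 2%-trimmed mean (0.02 at each end) of 500. Values were then taken as log2(signal + 16), which understates changes of dim genes. Of the probe sets 34945 had 1 gene symbol, 932 several and 9160 none in the platform annotation, and 64 were controls. A gene was read from its probe set of highest mean log2 signal over the 28 arrays. Genes below the median of the 12 arrays (7.85) were left out. No spread is known within an array, and precision is limited by the 3 arrays in each group.

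The difference was tested with limma 3.58.1 in R 4.3.3 (lmFit and eBayes over 12 arrays, no covariate), and each KO effect on its own groups, with Benjamini-Hochberg adjustment over 9097 genes at 0.05. Intervals are 95%. The tests were checked on simulated data. Figures used matplotlib 3.10.9. Same-numbered arrays deviated together across genotypes (correlations 0.41 to 0.63 in polysome RNA and 0.13 to 0.23 in round spermatids, against at most 0.05 for other numbers), so a fit blocked on that number was made. Each gene was centred on its group mean first, so a positive value for the same number itself pulls down those of other numbers. Other alternatives were quantile normalization, centring, no filter, other offsets, deposited scale, array weights, more or fewer arrays and single probe sets. Averaging round spermatid arrays 1 and 2 was chosen after seeing the data.

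The genes and lists were chosen with earlier results of these data known. Named were Ddx25, the 12 largest called differences each way without overlap in at least 1 material, up to 4 genes per list by adjusted p, and up to 8 each with opposite signs, with the larger effect in round spermatids, or alike in both. Brdt, Cabyr, Crem, Prm1, Spata6, Akap4, Lelp1, Tjp1, the tektins and genes of the averaged fit were named after their values were seen, as were the printed sequences. Lists whose calls the report does not count were as follows, with the block's calls after each. Sperm metabolism enzymes had 1 lower of 23 (Gpd2), with the block 5. Chromatoid body and piRNA pathway genes had 1 lower of 25 (Tdrd1), with the block 3. Apoptosis regulators had 2 lower of 15, with the block 3: Bad and Bcl2l14 (-1.31), whose other bright probe set read -0.23 and did not pass (limma adjusted p = 0.612). None was called in the remaining lists, and with the block 5 of 15 spermatocyte markers, 1 of 8 spermatogonia markers, 1 of 10 ion channels, 7 of 35 chaperones and 3 of 11 ADAM genes lay lower and 2 of 14 cholesterol synthesis genes higher. With the block 2 of 4 peritubular markers lay higher and 1 lower, 1 of 8 macrophage markers higher and 1 lower, and 0 of 1 endothelial marker was called. No red blood cell marker passed the filter. The immunoprecipitated polysome arrays entered the mean signal that chose each gene's probe set, and were otherwise used only in sensitivity tests.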

Additional observations from a re-analysis of the deposited data

Results flagged for a closer look

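The KO effect differed between polysome RNA and round spermatids, by the test of the difference itself (limma), in 254 genes, 205 more negative and 49 more positive in polysome RNA. Effects that passed with opposite signs in the 2 materials gave differences of -1.79 for 4933401B06Rik, -1.75 for 4930453H23Rik, -1.47 for D130020L05Rik and -1.42 for Bco1. On the positive side they were 1.41 for Fabp5, 1.44 for C2cd4b and 1.65 for Mark1. Among 128 named genes, 1 had 1 of its 4 WT spermatocyte arrays far from the other 3, and 2 had 1 of 4 KO spermatocyte arrays so. Chance sets apart about 1 in 20 such groups.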

How the results depend on the processing

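No alternative reversed the direction of any of the 52 named genes past the threshold, but probe sets tested singly were left out of that check. Of the 254 called genes, 68 had other probe sets at or above the filter. In 14 genes such a probe set had the opposite sign. In 13 genes it was called the same way and in 0 the other way. The count of genes whose KO effect differed (254, with 49 higher and 205 lower) moved by over 1.5 times as follows, and where no value is named the cause was not tested. It was 434 with quantile normalization (71 higher, 363 lower), 505 with arrays centred (28 higher, 477 lower) and 72 without the filter (20 higher, 52 lower), where more genes were tested. It was 31 with probe sets tested singly (13 and 18), 165 with array weights (23 higher), 1589 over 24 arrays (376 and 1213) and 1652 without the 3 arrays whose descriptions name another group (533 and 1119). On the deposited scale limma called 0 genes (0 higher, 0 lower). With round spermatid arrays 1 and 2 averaged it was 5 (0 and 5), with weights also 90 (13 and 77), and with the block also 85 were higher. Without 1 array it ran from 71 (WT round spermatid array 2) to 726 (WT polysome array 2), with 11 to 203 higher and 60 to 523 lower.

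With the replicate block it was 1402 (367 higher, 1035 lower), the polysome effect 1997 (859 and 1138) and the GRTH immunoprecipitate against IgG 102 (20 and 82; 0 without the block in limma, 389 at an unadjusted p under 0.05). The polysome effect called 378 without the filter (19 and 359), 19 higher with centring, and without 1 array 12 to 203 higher. Of the 52 named genes past the threshold the block kept 52, quantile normalization 48, centring 50, array weights 38, no filter 24, averaging 2, averaging with the block 45 and the deposited scale 0.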
